A study of Mus musculus with 22 samples.

Results

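Among 11 input lysates of dissected mouse striatum, 4 held the mRNA of Slc17a7, the vesicular glutamate transporter of cortical excitatory neurons, at 24.9 to 95.8 CPM (counts per 1000000 of the library total), and the other 7 held it at 0.632 to 2.92. The 4 libraries were chosen by that value alone, with a threshold of 10 CPM, out of 22 libraries in the series (11 inputs and the 11 pulldowns of the same lysates). The library nearest to the threshold from above was that of animal 1, at 24.9, and the nearest from below was that of animal 13, at 2.92. Because the threshold was set on these libraries, every gene of the input contrast is described here without a test. The pulldown libraries were not used by the threshold, and the tests of the 4 animals rest on them.

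The study lysed striata of 6 wild-type mice and 5 Fmr1 mutant mice, called KO or FMRP mutant in the labels and modelling fragile X syndrome, and sequenced mRNA bound to tagged ribosomes beside the whole cleared lysate. Mice of both genotypes expressed the ribosomal protein Rpl10a fused to EGFP in medium spiny neurons with the dopamine receptor Drd1, and the pulldown (IP) used antibodies to EGFP. The promoter that drives the fusion protein is not given in the sources used here. The input was an aliquot of the same supernatant, taken after nuclei and insoluble membranes had been pelleted, and therefore holds cytoplasmic mRNA of every cell in the lysate. The labels name no treatment, and strain, age, sex and litter are not given in the sources used here. Animals 1 and 12, both wild type, and animals 3 and 9, both mutants, gave the 4 marked inputs. The other 7 came from animals 4, 13, 14 and 20 (wild type) and 2, 10 and 11 (mutant). Marked is used below for the 4 animals and for all libraries made from them. The labels do not say how animals were raised or dissected, so p-values measure the spread between these libraries, which may in part be technical.

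Excitatory neurons of the cerebral cortex release glutamate, and Slc17a7 loads it into their synaptic vesicles. Striatal projection neurons release GABA, express dopamine receptors and lie directly beneath the white matter that separates them from the deepest cortical layers, with the claustrum at their lateral side. Neurod6, Neurod2 and Tbr1 encode transcription factors of cortical excitatory neurons. Nr4a2 marks the claustrum and the subplate-derived cells of layer 6b, while Cplx3, Ccn2 (connective tissue growth factor, Ctgf), Nxph3 and Nxph4 mark layer 6b. In a lysate, fewer cells of a type and less mRNA per cell cannot be told apart.

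The starting regions of Slc17a7, which chose the libraries, and of Neurod2, the gene with the highest fold among those named by the rule, are printed because the genes stood together in the same 4 libraries and because the second encodes a factor that binds E-boxes. The windows are the 250 bases before the RefSeq start in GRCm38.p6, at chr7:45163671-45163920 on the plus strand and chr11:98329646-98329895 on the minus strand, and capitals mark the E-box CAGATG, searched on both strands together with the T-box sequence TCACACC, for which overlapping matches would both be kept.
Slc17a7: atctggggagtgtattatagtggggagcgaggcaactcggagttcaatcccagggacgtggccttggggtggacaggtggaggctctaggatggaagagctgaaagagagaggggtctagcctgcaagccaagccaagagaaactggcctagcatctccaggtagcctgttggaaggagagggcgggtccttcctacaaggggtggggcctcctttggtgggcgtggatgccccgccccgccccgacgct
Neurod2: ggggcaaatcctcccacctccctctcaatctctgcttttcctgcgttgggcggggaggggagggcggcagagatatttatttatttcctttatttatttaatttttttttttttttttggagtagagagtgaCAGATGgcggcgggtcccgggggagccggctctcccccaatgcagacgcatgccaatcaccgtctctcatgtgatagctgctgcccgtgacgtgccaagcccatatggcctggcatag
The Neurod2 window held 1 CAGATG and the Slc17a7 window none, and neither held TCACACC. Over all 32851 promoter windows of the same length, 14.4% held CAGATG and 3.33% held TCACACC. Of the 149 genes described below as higher in the marked inputs, 100 had 148 windows in the table, of which 14.2% held CAGATG and 6.08% held TCACACC. A match is a run of letters and not a measured binding site.

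Depth overlapped between the groups. Input totals ran from 25164548 to 43276230 counts and IP totals from 9375611 to 82376192, and both ends of the IP range were marked animals (12 and 1). Mitochondrial ribosomal RNA took 26.1% to 37.1% of counts in the marked inputs and 25.1% to 53.2% in the others. Fmr1, the mutated gene, stood at 51.6 to 63.4 CPM in the wild-type inputs and at 9.66 to 12.9 CPM in the mutant inputs, in accord with every genotype label. Drd1, which defines the tagged cells, stood at 125.8 to 242 CPM in input and 534 to 779.6 CPM in IP. From here on CPM are scaled by the trimmed mean of M values (TMM), and log2 folds are those of edgeR's quasi-likelihood fit with genotype as a covariate, given with their standard error (SE).

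In input, Slc17a7 (chromosome 7, 45163949 to 45176142, mm10) stood at 22, 82.1, 41.7 and 97.4 CPM in animals 1, 12, 3 and 9, against 0.55 to 2.86 CPM (median 1.45) in the other 7. This is the value that chose the libraries, at a log2 fold of 5.28 ± 0.52 (SE, n = 4 and 7). Among all 17750 genes with enough counts, 149 (0.839%) had a log2 fold of at least 1 and libraries that did not overlap, with all 4 marked inputs above all 7 others, and 19 (0.107%) lay as far in the other direction. With any size of fold, 342 genes (1.93%) were higher and 64 (0.361%) lower in all 4 marked inputs. The higher genes outnumbered the lower ones, and 101 of the 149 but 3 of the 19 reached a mean of 2 CPM. The median fold of the 149 was 4.01 on the linear scale.

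**Figure D1:**
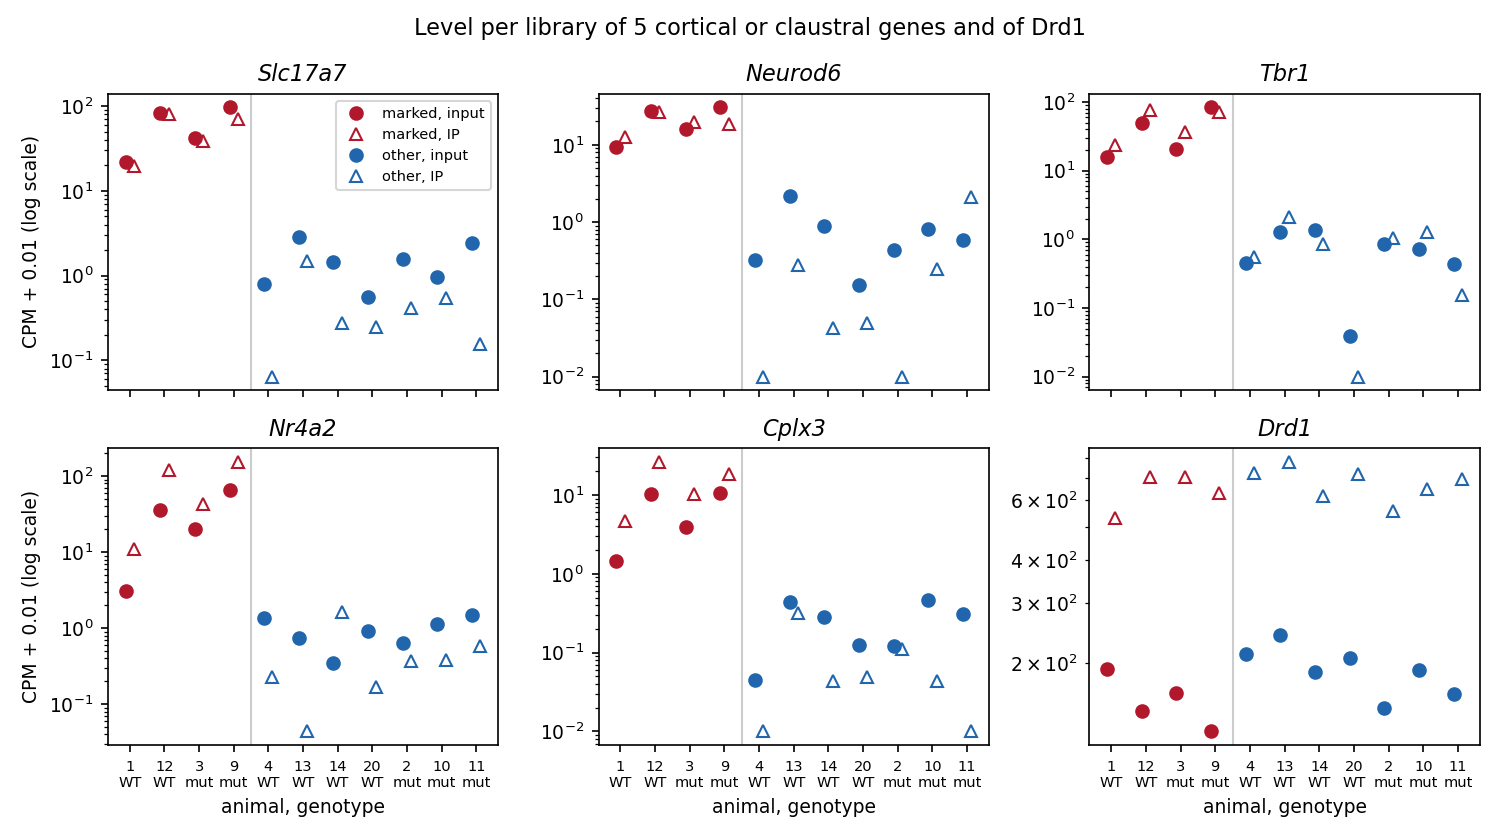
Levels of Slc17a7, Neurod6, Tbr1, Nr4a2, Cplx3 and Drd1 in each animal, as TMM-scaled CPM plus 0.01 on a log axis; filled circles are input, open triangles IP, red the 4 marked animals and blue the other 7. The 5 cortical or claustral genes separate the marked animals in both input and IP, while Drd1 stands at 534 to 779.6 CPM in every IP library and overlaps between the groups.

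Several transcription factors of cortical excitatory neurons separated the groups. Neurod2 (chromosome 11, 98325415 to 98329648) read 6.8, 17.9, 9.48 and 30.5 CPM in animals 1, 12, 3 and 9 and 0 to 0.337 CPM in the other 7, a log2 fold of 7 ± 0.58. Tbr1, a T-box factor of deep-layer neurons (chromosome 2, 61802930 to 61814114), read 16, 48.5, 20.6 and 84.3 CPM against 0.0289 to 1.35 CPM, a log2 fold of 5.83 ± 0.67. Neurod6 (chromosome 6, 55677822 to 55681263) read 9.22, 27.4, 16.2 and 30.8 CPM against 0.145 to 2.19 CPM, at 4.82 ± 0.59. In each of these genes animal 1 was the lowest of the marked inputs and animal 9 the highest, and the lowest marked input stood at least several times above the highest of the others. Neurod1 stood at 0.955 to 2.04 CPM in the marked inputs and was at 0 counts in 5 of the other 7. Lhx2, a LIM homeobox factor, did not separate the groups, at 0.13 ± 0.16.

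The other genes of the cortical excitatory list encode synaptic and secreted proteins, and they spread from full separation to overlap. The neuropeptide gene Cck read 17, 71, 43 and 93.8 CPM in the marked inputs against 3.85 to 7.64 CPM, at 3.22 ± 0.41. Nrn1, which encodes the growth-promoting surface protein neuritin, had a log2 fold of 4.44 ± 0.73; 22.3% of its exon bases overlap other annotated genes, and the libraries do not keep strand. Slc30a3, the transporter that fills vesicles with zinc, stood at 1.33 to 7.43 CPM against 0 to 0.641 CPM. Nptx1, a pentraxin that gathers glutamate receptors, had a log2 fold of 2.31 ± 0.39. Sv2b and Mef2c, which striatal neurons also express, were abundant in all 11 inputs, with log2 folds of 0.55 ± 0.12 and 0.67 ± 0.15. Of the 15 measured members of the list, 15 had positive folds and 10 met both conditions above, beside 0.839% of all genes. The median was 3.29, beside 0 for all genes tested. Emx1 was too low to enter the fit, at 1 to 57 counts in the marked inputs and 0 to 2 in the others.

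Genes of the cortical layers differed between layers. Of 12 measured genes of layers 6 and 6b, 5 met both conditions (Cplx3, Ccn2, Nxph3, Rprm and Sla), beside 0.839% of all genes. Of the 12, 11 had positive folds and the median log2 fold was 1.48. Cplx3, which encodes a complexin of layer 6b neurons (chromosome 9, 57599992 to 57606281), read 1.44, 10.2, 3.93 and 10.6 CPM against 0.0344 to 0.456 CPM, at 4.74 ± 0.54. Ccn2 read 1.47, 14, 8.75 and 13.4 CPM against 0.0675 to 0.962 CPM, at 4.23 ± 0.66, and 23.2% of its exon bases overlap other annotated genes. Nxph3, a ligand of neurexins, read 4.1, 8.16, 4.4 and 4.22 CPM against 0.0252 to 0.996 CPM, at 4.04 ± 0.49. Unlike the factors above, Nxph3 had its highest value in animal 12, and animals 1, 3 and 9 were close to each other. Nxph4 and Thsd7b had log2 folds of 2.46 ± 0.77 and 2.24 ± 0.60 with overlapping libraries, and Moxd1 was at -0.36 ± 0.36.

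Layer 5 and layers 2 to 4 stood nearer to the level of all genes, of which 0.839% met both conditions in the higher direction. Of 12 measured layer 5 genes, 1 met both conditions, with a median log2 fold of 0.22. It was Fezf2, the factor that specifies neurons projecting below the cortex, at 7.57, 13.6, 8.89 and 12 CPM against 1.58 to 5.36 CPM (1.70 ± 0.26). Etv1, Vat1l, Rbp4, Fam84b and Pld5 had folds below 0, from -0.41 to -0.04, and at 5.58 CPM or more in every marked and other input they are not silent in lysates without the marker. Of 11 genes of layers 2 to 4, 1 met both conditions, with a median of 0.30. It was Cux2, at 9.53, 9.9, 9.48 and 28.1 CPM against 4.44 to 8.49 CPM (1.03 ± 0.30), where animal 9 stood apart from the other marked inputs. Rorb read 60, 88.2, 93.5 and 204.1 CPM against 66.4 to 100 CPM, so animal 9 alone stood above the other 7. The 3 layer lists were written by hand and their members differ in how much the striatum itself expresses them, which these folds do not separate.

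**Figure D2:**
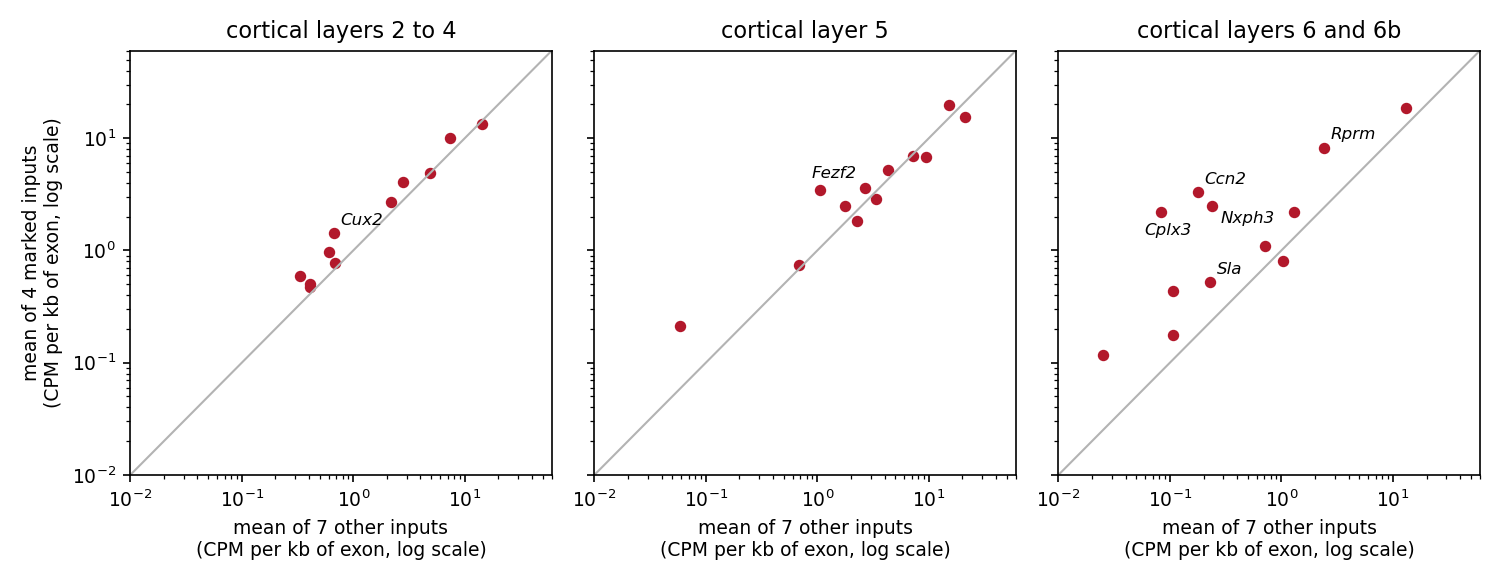
Mean input level of each listed layer gene in the 7 other inputs (x) against the 4 marked inputs (y), in CPM per kilobase of annotated exon on log axes, with the line of equal levels; genes that met both conditions are named. Most genes of layers 2 to 4 and layer 5 lie near the line, and Cplx3, Ccn2 and Nxph3 lie furthest above it.

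Levels can be compared between genes once divided by exon length. The added level, marked minus other, was largest for Cck at 38.6 CPM per kilobase of exon, followed by Neurod6 at 9.37, Mef2c at 7.84 and Tbr1 at 7.60 within the cortical excitatory list. Its median difference was 5.11 CPM per kilobase over 15 genes. The corresponding median was 0.631 for layers 6 and 6b, 0.103 for layer 5 and 0.262 for layers 2 to 4. Rprm (5.82), Hs3st4 (5.24) and Ccn2 (3.11) had the largest differences in layers 6 and 6b, Ldb2 (4.77) and Fezf2 (2.39) in layer 5, and Rorb (2.64) and Rasgrf2 (1.31) in layers 2 to 4. On this scale of differences Cplx3 and Nxph3 added 2.13 and 2.25 CPM per kilobase, less than Rprm although their log2 folds were larger. Their level in the other inputs was 0.0833 and 0.239 CPM per kilobase, against 2.4 for Rprm.

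Of 6 measured claustrum genes, Nr4a2 and Rxfp1 met both conditions, beside 0.839% of all genes. Nr4a2, an orphan nuclear receptor (chromosome 2, 57106830 to 57124003), read 3.05, 35.6, 20.2 and 65.2 CPM in animals 1, 12, 3 and 9 against 0.337 to 1.46 CPM, at 4.93 ± 0.69. Rxfp1, the relaxin receptor, read 1.16, 5.13, 2.84 and 4.91 CPM against 0.0252 to 0.54 CPM, at 4.15 ± 0.64. Ntng2 had a fold of 1.94 ± 0.52 with overlapping libraries, while Gnb4, Car3 and Lxn lay between -0.06 and 0.07.

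The mix of these mRNAs was not the same in the 4 marked inputs. As a ratio to Slc17a7 in the same library, Nr4a2 stood at 0.139 in animal 1, 0.434 in animal 12, 0.484 in animal 3 and 0.669 in animal 9. Fezf2 ran in the opposite order at the ends, with 0.344 in animal 1 and 0.123 in animal 9, as did Nxph3 with 0.186 and 0.0433. Cck, by comparison, stayed between 0.773 and 1.03 and Neurod6 between 0.316 and 0.419. The IP libraries, which the threshold did not use, gave the same ends for Nr4a2, with 0.556 in animal 1 and 2.19 in animal 9. For Nxph3 they gave the lowest ratio in animal 9 again, at 0.117, but the highest in animal 3, at 0.189. Fezf2 also had its highest IP ratio in animal 1, at 0.309, and its lowest in animal 12, at 0.0652. These ratios have 1 value per animal and no test. Over all 149 genes, animal 9 held the highest marked value in 100 and animal 1 the lowest in 102, and the median gene stood at 59.5% of the marked mean in animal 1, 77.5% in animal 3, 110% in animal 12 and 146.4% in animal 9.

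Secreted factors, receptors and channels were described from lists of gene names. Of 20 measured neuropeptide and secreted-factor genes, 4 met both conditions, among them Cck and Nptx1 from above. Bdnf, the neurotrophin that cortical neurons supply to the striatum, read 0.911, 3.22, 3.28 and 5.62 CPM against 0 to 0.665 CPM (3.80 ± 0.74, 14.4% of exon bases shared with other genes), and Cbln2, a synapse organiser, read 1.58, 8.24, 5.17 and 11.5 CPM against 0.0665 to 0.893 CPM (3.92 ± 0.55). Bmp3, a secreted protein of the bone morphogenetic family that is in none of the lists, was among the 12 highest folds, at 6.13, 16.1, 14.4 and 19.7 CPM against 0.0252 to 2.6 CPM (3.93 ± 0.83). Cort and Adcyap1, at 4.04 ± 1.11 and 3.73 ± 1.53, overlapped. Of 42 potassium channel genes 5 met both conditions. Kcnj6 and Kcnj3, subunits of G protein-gated inward rectifiers, had log2 folds of 2.79 ± 0.42 and 1.63 ± 0.23, and Kcnc2, a fast delayed rectifier, 1.83 ± 0.32; 31.1% of the exon bases of Kcnj3 overlap other genes. Htr1a, the inhibitory serotonin receptor, was the 1 of 27 amine and acetylcholine receptor genes that met both conditions, at 3.33, 3.22, 5.17 and 3.71 CPM against 0.126 to 2.19 CPM (2.23 ± 0.52). Gabra3 (1.12 ± 0.18) was the 1 of 18 GABA genes, and the scaffold gene Shank1 (1.15 ± 0.31) the 1 of 29 glutamate receptor and postsynaptic genes. Over all genes 0.839% met both conditions in this direction, so 1 gene of a short list is little to set against that share. The medians of the last 4 families were 0.13, 0.16, 0.04 and 0.05, near the 0 of all genes.

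Markers of other regions and of interneurons gave no gene that met both conditions. Of 11 thalamic and septal genes Slc17a6, the second vesicular glutamate transporter, came nearest, at 2.35, 0.436, 1.77 and 4.67 CPM against 0.101 to 0.665 CPM (2.85 ± 0.59), with animal 12 inside the range of the others. None of 5 hippocampal genes separated the groups; Tdo2, of the dentate gyrus, had the largest fold (1.42 ± 0.70). Of 8 cortical interneuron genes Vip had the largest fold, at 0.21, 2.35, 1.71 and 2.49 CPM against 0 to 0.354 CPM (3.53 ± 0.82), with animal 1 inside the range of the others. As a list these 8 genes did separate the inputs, with a mean log2 level of 1.8 to 2.46 in the marked and 0.66 to 1.69 in the others. Their folds were above 0 in 7 and below 0 in 1. The thalamic and septal list overlapped, at 1.62 to 2.22 and 1 to 1.75. Striatal interneuron genes lay between -0.94 and 0.10, led by Slc18a3, the vesicular acetylcholine transporter (-0.94 ± 0.38).

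The mRNAs of striatal neurons were slightly lower in the marked inputs and overlapped. All 18 genes shared by both kinds of striatal projection neuron had folds below 0, from -0.35 to -0.11 (median -0.24), and none separated the groups. Rgs9, a regulator of G protein signalling in striatal neurons, read 301.8, 258.8, 252.4 and 192.4 CPM in animals 1, 12, 3 and 9 and 281.4 to 348.1 CPM in the others (-0.31 ± 0.10). The mean log2 level of the 18 genes was 8.03 in animal 1, 7.78 in animal 12, 7.77 in animal 3 and 7.39 in animal 9, against 7.91 to 8.06 in the others, so animal 1 lay inside the range and the other marked inputs below it. D1 genes had a median of -0.27, with 8 of 10 below 0. Isl1 (-0.52 ± 0.18), Pdyn (-0.48 ± 0.14), Ebf1 (-0.42 ± 0.13) and Drd1 (-0.27 ± 0.10) were among them. D2 genes had a median of -0.23, with 5 of 6 below 0, including Penk (-0.34 ± 0.12) and Drd2 (-0.32 ± 0.10). Gpr6 alone of the 34 genes in the 3 lists separated the groups, at 20.3 to 28.4 CPM in the marked inputs and 30.6 to 37.4 CPM in the others (-0.35 ± 0.11). Over all genes 0.361% were lower in every marked input, and 1 gene is little to set against that share.

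Glial and vascular genes did not separate the groups. Oligodendrocyte genes had a median of -0.14, with 12 of 14 below 0, and their mean log2 level was 6.52 to 6.78 in the marked inputs and 6.63 to 6.97 in the others. Microglial genes had a median of -0.18, with 12 of 14 below 0 (Ctss -0.47 ± 0.14). Astrocyte genes had a median of 0, which turned to -0.01 with 3 other scalings. Endothelial and mural genes had a median of -0.28 (Acta2 -0.61 ± 0.44, Ly6c1 0.61 ± 0.33), oligodendrocyte precursor genes -0.01 (Cspg4 -0.33 ± 0.36, Olig2 -0.24 ± 0.21) and fibroblast and meningeal genes 0.15 (Aldh1a2 0.87 ± 0.60, Slc6a13 0.62 ± 0.90). Ependymal and choroid plexus genes were all 7 below 0, led by Ttr (-2.76 ± 2.01), whose level of 1779 CPM in animal 20 stood far above the 3.77 to 33.0 CPM of the other 10 inputs. Red blood cell genes had a median of -0.48, with a mean log2 level of 1.38 to 3.24 in the marked inputs and 2.63 to 3.51 in the others. Of 19 immediate early genes Bdnf alone met both conditions, and the median was -0.07. Over all genes 0.839% met both conditions in this direction, so 1 gene is little to set against that share. Mitochondrially encoded mRNAs had a median of -0.22. The part of these cells in the folds above was not tested.

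**Figure D3:**
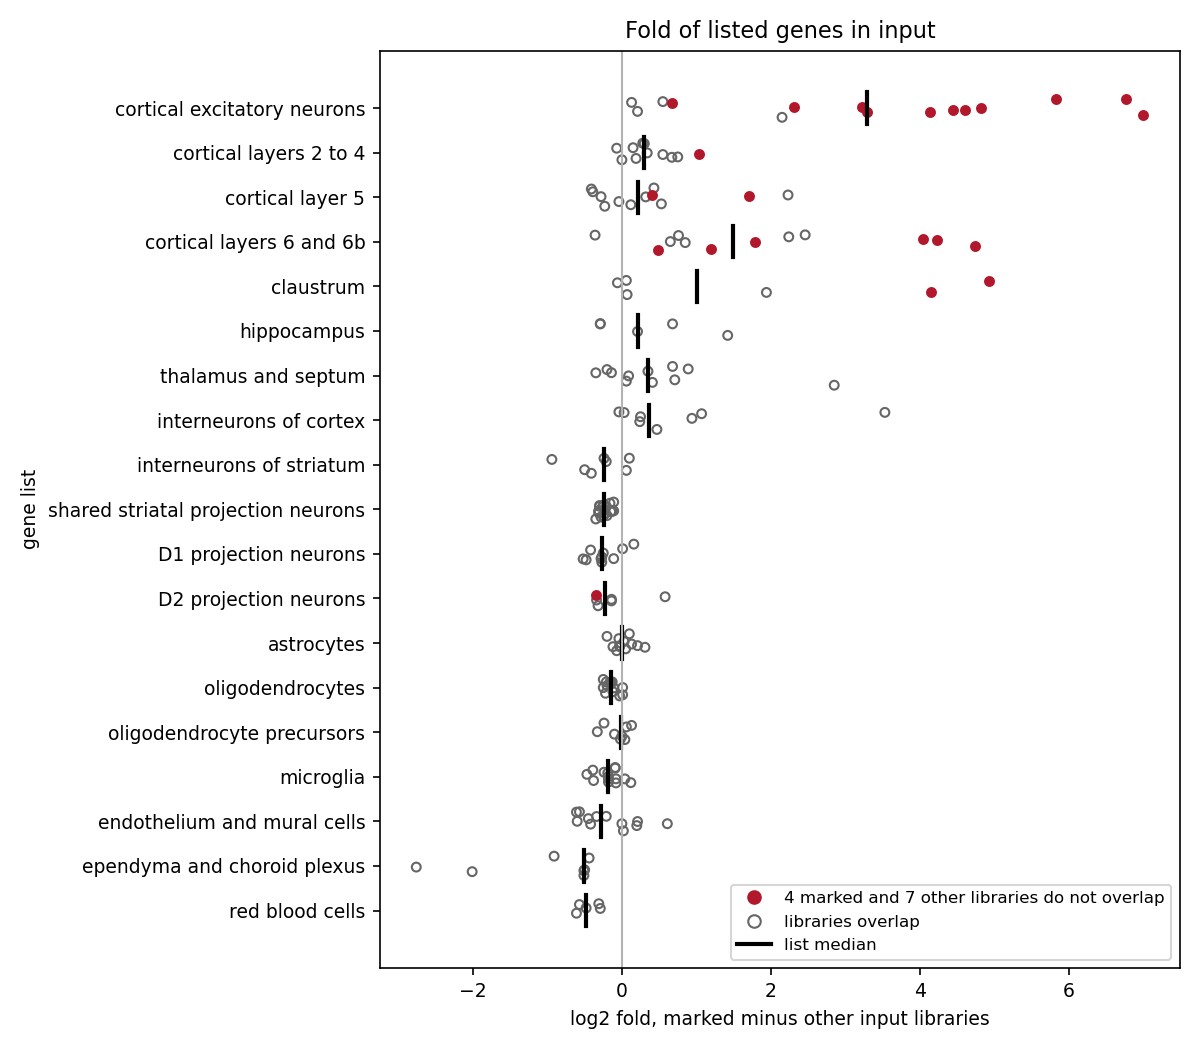
Log2 fold of each listed gene between the 4 marked and the 7 other inputs, by list; filled points are genes whose libraries do not overlap, open points overlap, and black bars are list medians. The cortical excitatory list has the highest median (3.29), layers 6 and 6b follow (1.48), and the shared striatal, D1 and D2 lists lie just below 0.

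The 19 genes past the fold in the lower direction included 11 with predicted names. Of the named genes with at least 2 CPM, Pifo, which encodes a protein of the primary cilium, was the 1 past the fold, at 1.96, 2.59, 1.57 and 2.21 CPM against 3.4 to 10.7 CPM (-1.40 ± 0.30). The next were Pkp2 (-0.93 ± 0.27), Brca1 (-0.91 ± 0.30), Rsph4a of the radial spoke of motile cilia (-0.90 ± 0.22) and Bmp6 (-0.74 ± 0.22). Adgrv1, Lipt2, Tulp3, Rttn, Pcdhb13, Map3k3 and Zfp78 lay between -0.71 and -0.56. With any fold, 0.361% of all genes were lower in every marked input. Order by chance would place these 4 libraries lowest in 1 of 330 divisions, a share of similar size. The named genes are therefore a description only. The number of genes in the lower direction rose whichever animal was left out, to between 22 and 75. No overlap is easier to meet with fewer libraries, so the rise alone does not show dependence on single animals. The number also differed by which marked animal was left out, at equal numbers of libraries, and the cause of that was not tested. The number was 75 without animal 1, 53 without animal 12, 48 without animal 3, 40 without animal 9, 39 without animal 4, 31 without animal 10 and 29 without animal 13. The number in the higher direction was 274 without animal 1.

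The IP libraries were used to test whether these animals stood apart in libraries that the threshold had not used. Slc17a7 read 19.6, 80.4, 38.3 and 70.5 CPM in the IP of animals 1, 12, 3 and 9 and 0.0541 to 1.49 CPM in the other 7, a log2 fold of 6.74 ± 0.61 (adjusted p = 0.00041 over 15540 genes, edgeR quasi-likelihood test with Benjamini-Hochberg adjustment). The IP of each marked animal stood above each of the others for Slc17a7, Neurod6 and Tbr1 (exact permutation test over 330 divisions of the animals, two-sided p = 0.00303 for each, the smallest value these divisions allow). Input Slc17a7 of the same lysates chose the animals, so the division was largely set before the test for these genes. The p-values show that 2 assays of a lysate divide alike and are no test in new animals. Across all genes 246 (1.58%) were higher and 5 (0.0322%) lower in the IP of the marked animals at an adjusted p of 0.05. The number higher was 136 without animal 9 and 119 without animal 12, and in wild-type animals alone, with 2 marked and 4 others, it was 40 and no longer held Slc17a7 (log2 fold 6.47, adjusted p = 0.102), Tbr1 (0.17), Emx1 (0.213), Slc30a3 (0.174), Nptx1 (0.392), Cck (0.433), Ntsr1 (0.161), Nxph3 (0.101), Sla (0.632), Nr4a2 (0.388), Rxfp1 (0.0786), Htr1a (0.0549), Grik3 (0.0549) or Chrm2 (0.105). In mutant animals alone, with 2 marked and 3 others, Neurod6 (adjusted p = 0.405), Slc30a3 (0.257), Sla (0.0816) and Bdnf (0.0607) were not called.

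The genes of smallest p in IP were mostly not members of the lists. Ncald, which encodes the calcium sensor neurocalcin delta, rose from 7.27 to 13 CPM in the other 7 libraries to 56.2, 103, 61.8 and 101.8 CPM in animals 1, 12, 3 and 9 (3.05 ± 0.18, adjusted p = 7.72e-08). Ppm1e, a protein phosphatase, rose by 2.67 ± 0.19 (5.53e-07) and Id2, an inhibitor of basic helix-loop-helix factors, by 3.08 ± 0.25 (2.29e-06) on the log2 scale. Efr3a, Ipcef1, Efhd2, Sema5a, Stmn1 and Hivep1 rose by 2.01 to 2.95. Sox5, a factor of deep-layer neurons, read 4.8, 24.9, 12.1 and 20.9 CPM against 0.533 to 1.62 CPM (4.07 ± 0.38), and Trhde, which degrades thyrotropin-releasing hormone, 3.4, 15.4, 7.85 and 14.6 CPM against 0.2 to 1.08 CPM (4.00 ± 0.40). All 12 of these genes, Cplx3 included, had IP libraries that did not overlap, with animal 1 the lowest of the marked ones or level with animal 3. Nrsn2 (-0.39 ± 0.08), Zfp710 (-0.59 ± 0.14), Bend4 (-0.38 ± 0.09), Zswim5 (-0.33 ± 0.08) and Ikzf1 (-0.60 ± 0.15) fell, and each lost its call in 5 to 10 of the 11 fits that left out 1 animal.

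Of the 149 genes higher in the marked inputs, 142 could be tested in IP, and 91 of them rose there while none fell, beside the 1.58% of all genes that rose. The median IP log2 fold of the 142 was 2.21, and it stayed at 2.21 when the 2 genes without a count in the other 7 IP libraries were set to a bound of 3 counts over those libraries. Of the 19 genes lower in the marked inputs 8 could be tested, and none was called in either direction. The IP and input of an animal share a lysate, so the 2 assays are not independent samples of the animal.

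**Figure D4:**
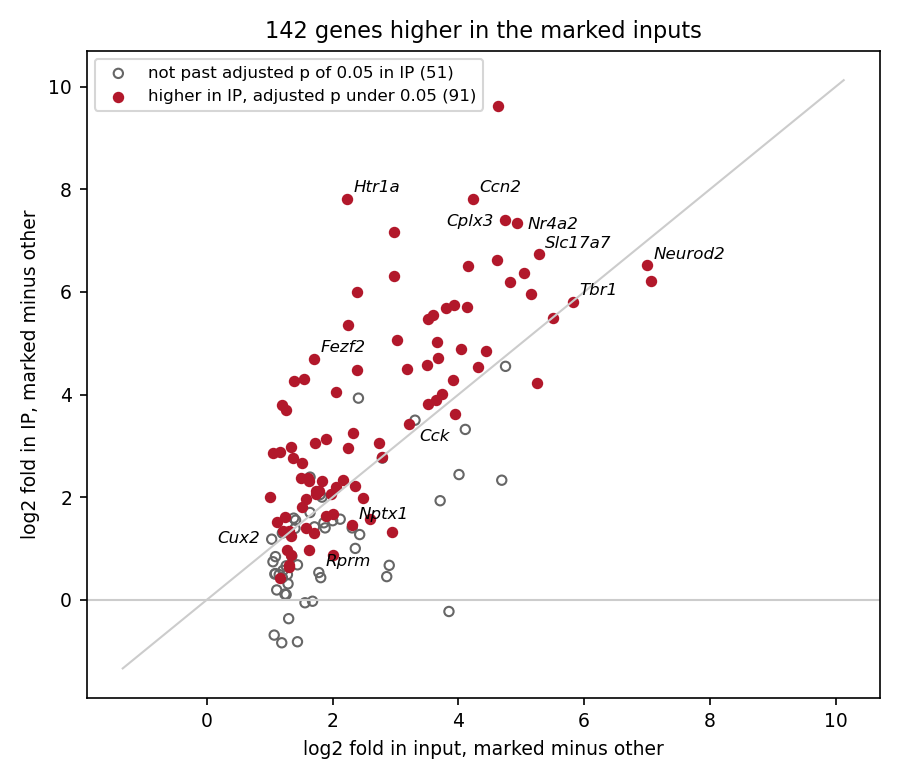
Log2 fold between marked and other animals in input (x) and in IP (y) for the 142 genes that were higher in the marked inputs and testable in IP; filled points passed an adjusted p of 0.05 in IP, and the diagonal is equality. Of the 142 genes, 91 are filled, and Ccn2, Cplx3, Nr4a2 and Htr1a lie above the diagonal.

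In IP, 9 of 14 measured cortical excitatory genes rose, beside 1.58% of all genes. The median log2 fold of the 14 was 4.14 beside -0.01 for all genes, and the median was the same with Emx1 at its bound below. Neurod1 and Dkkl1 were too low in IP to be tested. Tbr1 read 23.6, 76.2, 36.3 and 71.1 CPM against 0 to 2.13 CPM (5.81 ± 0.64, adjusted p = 0.00173) and Neurod6 12.6, 26.8, 19.6 and 18.3 CPM against 0 to 2.09 CPM (6.20 ± 0.95, 0.0103). Neurod2 (6.53 ± 0.78), Nrn1 (4.85 ± 0.57), Cck (3.42 ± 0.50) and Nptx1 (1.45 ± 0.26) also rose, the last overlapping between groups. Emx1 had 71, 6, 2 and 27 counts in the marked IP libraries and none in the other 7, so its mean level was at least 45.1-fold higher than 3 counts over those 7 would give, and its call was lost without animal 1, 9 or 12 (adjusted p = 0.0616, 0.111 and 0.0752). Slc30a3 had 10 to 37 counts in the marked IP libraries and 1 count in all 7 others together. Emx1 and Slc30a3 could enter the test only through the marked libraries and so could only come out higher. Their calls add little to the count of 9. Sv2b, Mef2c, Kcnv1, Lhx2 and Bhlhe22 had log2 folds of 0.15, 0.08, 0.42, 0.87 and 2.46 and did not pass the test.

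Of 12 genes of layers 6 and 6b, 5 rose in IP: Ccn2 (7.82 ± 0.68), Cplx3 (7.41 ± 0.60), Ntsr1 (5.17 ± 1.02), Nxph3 (4.88 ± 0.71) and Sla (3.80 ± 0.91). Ccn2 read 6.18, 24.4, 9.14 and 29.6 CPM against 0 to 0.271 CPM. Ntsr1, the neurotensin receptor of layer 6, rested on 4 to 69 counts in the marked IP libraries and 3 in all others, and lost its call without animal 9 or 12, while Sla lost its call in 9 of the 11 fits that each left out 1 animal. Like Emx1, Ntsr1 could enter the test only through the marked libraries. Of layer 5 genes 2 of 12 rose, Fezf2 (4.70 ± 0.58) and Npr3 (3.74 ± 0.80), and of layers 2 to 4 the 1 that rose of 11 was Rorb (1.01 ± 0.19), beside 1.58% of all genes. Of the 6 claustrum genes, Nr4a2 (7.35 ± 0.91, adjusted p = 0.00468) and Rxfp1 (6.51 ± 0.97, 0.00217) rose. Nr4a2 read 10.9, 120.3, 43.5 and 154.6 CPM against 0.0338 to 1.63 CPM. In limma-voom Nr4a2 (adjusted p = 0.298), Cck (0.0957) and Nptx1 (0.18) were not called.

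Genes of other regions and functions also rose in the marked IP. Slc17a6 had 158, 23, 30 and 90 counts in animals 1, 12, 3 and 9 and none in the other 7, at least 159.5-fold above 3 counts over those libraries. Prkcd, a thalamic kinase gene, rose by 3.70 ± 0.91 and was highest in animal 1, at 3.69 CPM, unlike the cortical factors. Htr1a had 111, 22, 60 and 47 counts against 1 in all other IP libraries together. Slc17a6 and Htr1a could enter the test only through the marked libraries and so could only come out higher. The muscarinic receptor gene Chrm2 rose by 3.88 ± 0.49, the kainate receptor gene Grik3 by 2.54 ± 0.32, the two-pore potassium channel gene Kcnk9 by 2.88 ± 0.37 and Gabra3 by 1.52 ± 0.23. Bdnf rose by 5.68 ± 0.80 and Cbln2 by 4.29 ± 0.67. By list, 7 of 20 secreted-factor genes, 4 of 42 potassium channel genes, 3 of 25 amine and acetylcholine receptor genes, 2 of 28 glutamate receptor and postsynaptic genes and 1 of 18 GABA genes rose, beside 1.58% of all genes. A single gene of a short list is little to set against that share. Of interneuron genes Vip (4.96 ± 0.98) rose among 8 of the cortex and Npy (1.91 ± 0.46) among 5 of the striatum. The mean log2 level of the cortical interneuron list was 0.46 to 1.22 in the marked and -1.35 to -0.13 in the other IP libraries. That of the thalamic and septal list was 0.97 to 1.95 and -0.69 to 0.17, and neither list overlapped. The layer 5 list stood at 4.35 to 4.5 and 3.53 to 4.09 and the amine and acetylcholine receptor list at 3.03 to 3.54 and 2.23 to 2.67. The secreted-factor list stood at 1.77 to 2.51 and 0.17 to 0.79. These lists, and the cortical excitatory, layer 6 and 6b and claustrum lists, did not overlap either. The striatal interneuron list did, at 0.39 to 1.6 and -0.47 to 0.42. No gene of the hippocampal, oligodendrocyte, precursor, microglial, vascular, fibroblast, ependymal, red blood cell or mitochondrial lists was called.

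Genes of striatal projection neurons did not pass the test in IP. Of the shared striatal genes 17 of 18 had folds below 0 with a median of -0.15, and their mean log2 level was 8.75 to 8.92 in the marked and 8.93 to 9.01 in the other IP libraries, close but without overlap. D1 genes had a median of -0.11, with Drd1 at -0.07 ± 0.09. D2 genes had a median of 0.13. Of 12 astrocyte genes 2 rose, beside 1.58% of all genes, Slc1a2 by 1.08 ± 0.16 and Aldoc by 0.78 ± 0.18, while 9 had positive and 3 negative folds. Their mean log2 level was 3.09 to 3.53 in the marked and 2.33 to 3.10 in the other IP libraries, which overlapped. The part of astrocytes in the IP result was not tested.

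Within the marked animals, the pulldown was compared with the input of the same lysates to see which listed mRNAs it held at more or less than their input share. Among 17916 genes 3109 (17.4%) were higher and 4029 (22.5%) lower in IP, and the median gene lay at -0.13. D1 genes were enriched, 10 of 10 with a median of 1.58, and D2 genes depleted, 6 of 6 with a median of -3.36. Oligodendrocyte genes were depleted 14 of 14, with a median of -4.89. The cortical excitatory genes lay between these, with a median of -0.67 over 16, of which 3 were enriched and 4 depleted. Slc17a7 had IP over input ratios of 0.685, 0.724, 0.689 and 0.539 in animals 1, 12, 3 and 9, given as a description because its input value chose these animals.

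The cortical and layer genes ran from strong depletion to ratios above 1. Several were also abundant in inputs without the marker. Rorb had 1590 to 3967 counts in the other inputs and 1713 to 5990 in the marked ones. Lhx2 had 316 to 863 and 476 to 710, and Vat1l 1820 to 5511 and 1795 to 3225. The ratios of such genes cannot be assigned to cortical mRNA. Neurod1 (-3.17 ± 1.16), Dkkl1 (-3.12 ± 0.92), Lhx2 (-3 ± 0.39) and Slc30a3 (-2.46 ± 0.92) were depleted, as were Rprm (-1.16 ± 0.32), Sla (-1.76 ± 0.64), Moxd1 (-1.94 ± 0.72), Fezf2 (-1.20 ± 0.45) and Rorb (-3.21 ± 0.25). Neurod1 and Dkkl1 rested on 1 to 25 counts in the marked IP libraries, and the calls of Neurod1, Dkkl1, Slc30a3, Moxd1, Sla, Rprm, Fezf2 and Mef2c were each lost in 1 to 4 of the fits that left out an animal. Sv2b (0.45 ± 0.12), Kcnv1 (0.68 ± 0.16) and Mef2c (0.37 ± 0.14), present in all lysates, were enriched. So were 4 of 11 genes of layers 2 to 4, Otof (0.93 ± 0.32), Rasgrf2 (0.69 ± 0.16), Lamp5 (0.39 ± 0.12) and Cux1 (0.36 ± 0.13), while Nectin3 (-2.38 ± 0.38) and Stard8 (-1.99 ± 0.53) were depleted beside Rorb. Of 12 layer 5 genes 5 were enriched, Fam84b (0.90 ± 0.15), Pld5 (0.66 ± 0.14), Vat1l (0.47 ± 0.17), Deptor (0.33 ± 0.11) and Ldb2 (0.26 ± 0.10), and Parm1 (-1.04 ± 0.16) and Etv1 (-0.84 ± 0.19) were depleted beside Fezf2. Over all genes 17.4% were enriched and 22.5% depleted. Leaving out 1 animal in turn lost the calls of Otof, Cux1, Lamp5, Deptor and Vat1l in 1 to 3 of 11 fits and that of Ldb2 in 9. No gene of layers 6 and 6b was enriched, and of the claustrum genes Gnb4 (1.14 ± 0.12) was enriched and Lxn (-1.42 ± 0.22) depleted. Tbr1 (-0.13 ± 0.63), Nxph3 (0.28 ± 0.64) and Ccn2 (0.45 ± 0.66) were not called. Cplx3 had ratios of 2.46, 1.92, 1.94 and 1.30 (0.76 ± 0.60, adjusted p = 0.338) and Nr4a2 2.74, 2.50, 1.62 and 1.77 (1.02 ± 0.74, adjusted p = 0.305), above 1 in each animal. With the animal as replicate block, which pairs each IP with its own input, both were enriched, Cplx3 at 0.88 (adjusted p = 0.0495) and Nr4a2 at 1.05 (adjusted p = 0.0446), and Nrn1, at -1.14 (adjusted p = 0.0206), and Rspo1, at -0.85 (adjusted p = 0.0292), were depleted. Slc17a7 aside, the block changed no other call among the listed cortical, layer and claustrum genes. In limma-voom Neurod2 (-0.94, adjusted p = 0.0327), Nrn1 (-1.57, 0.0234), Mdga1 (-1.23, 0.00304), Rspo1 (-1.05, 0.026), Npr3 (-1.45, 0.00584) and Car3 (-3.26, 0.035, beside 0.04 ± 0.89 in edgeR) were also depleted.

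A ratio of counts to Slc17a7 within each library needs no scaling between assays. Input Slc17a7 chose these animals, so the ratios are a description. Slc17a7 itself stood lower in IP than in input in all 4 animals, so a ratio above 1 here is not enrichment in IP. Tbr1 and Ccn2, for example, were not called in IP over input. For Nr4a2 this ratio was 4.00, 3.45, 2.35 and 3.28 times as high in IP as in input in animals 1, 12, 3 and 9, and for Cplx3 3.59, 2.65, 2.82 and 2.42 times. Of 18 cortical, layer and claustrum genes that separated the inputs, 5 stood above 1 in all 4 animals: Nr4a2, Cplx3, Ccn2, Tbr1 and Nptx1. Of these, Nptx1 also had 144 to 544 counts in the IP libraries of the other animals. In 5 genes the ratio lay below 1 in every animal: Neurod1, Dkkl1, Slc30a3, Sla and Fezf2. In the other 8, Neurod2, Neurod6, Cck and Cux2 among them, it lay on both sides of 1.

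**Figure D5:**
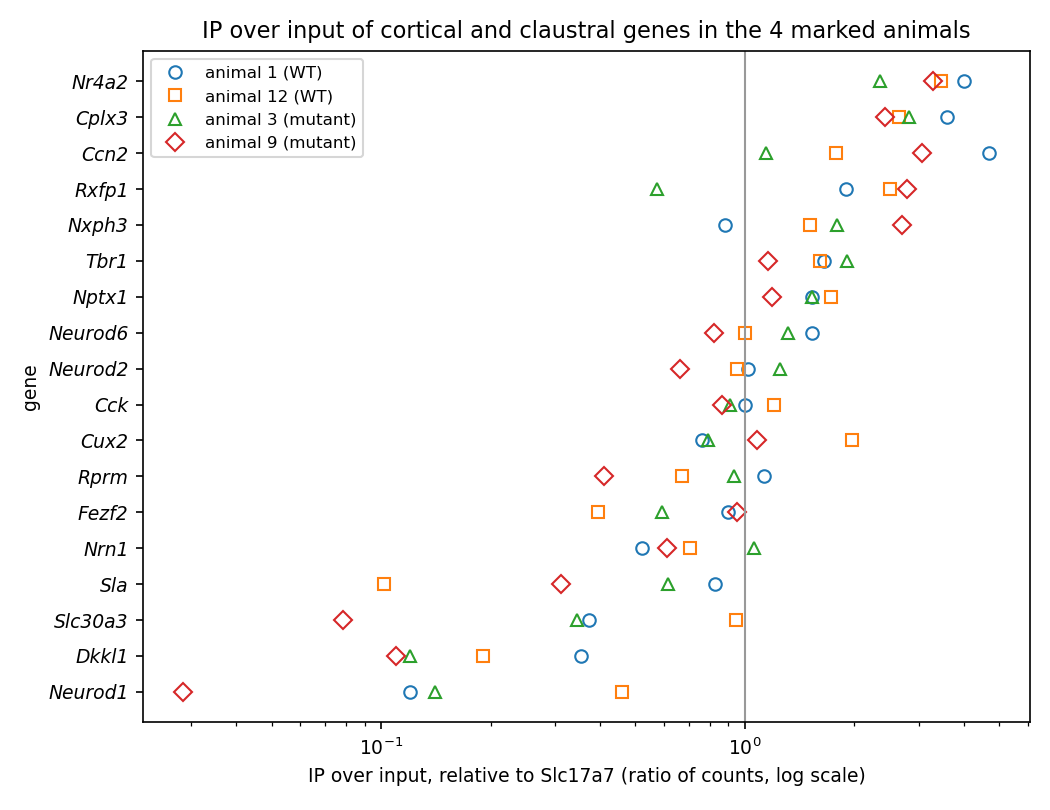
IP over input ratio of 18 genes relative to that of Slc17a7 in the same animal, from raw counts on a log axis, with 1 symbol per marked animal; the line at 1 is the ratio of Slc17a7 itself. Nr4a2 and Cplx3 lie above 2 in all 4 animals and Neurod1 and Dkkl1 below 0.5.

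The study compares genotypes, and the marked animals were 2 of 6 wild-type and 2 of 5 mutant animals. With the marker group as a covariate, 4 of 17750 genes (0.0225%) were called between mutant and wild-type inputs, all lower in mutants: Fmr1 (-2.28 ± 0.11), Abi3bp of the extracellular matrix (-1.50 ± 0.14), Tns1 of focal adhesions (-0.91 ± 0.12) and Rgs4 (-0.44 ± 0.07, adjusted p = 0.0366). Without the marker term 3 were called, and Rgs4, a regulator of G protein signalling abundant in striatum, was not (adjusted p = 0.104). Its call was also lost in 8 of the 11 fits that left out 1 animal. With the 4 marked libraries left out, 7 were called, 3 of them shared, and Tns1 was not (adjusted p = 0.0596). None of the 15 measured cortical excitatory genes was called between genotypes. The difference between the genotypes in the marked-against-other fold was tested in IP as an interaction in edgeR. It gave no called gene (16421 tested, smallest adjusted p = 0.538, 976 genes at an unadjusted p under 0.05). With 2 marked animals per genotype, this does not show that the folds were alike.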

How the data were processed

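Counts per gene were deposited by the authors as 2 tables, 1 of 11 IP and 1 of 11 input libraries, with 55341 gene symbols (all matched to GENCODE vM21). Per the submitters' processing notes STAR, featureCounts and DESeq2 were used with build mm10; versions, annotation and settings are not given in the sources used here. Per the labels, libraries did not keep strand and pulldowns and sequencing were 1 batch. Reads of overlapping genes may be split or lost, and without strand a gene and its antisense partner cannot be told apart.

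R 4.3.3 and edgeR 4.0.16 (TMM scaling, filterByExpr, quasi-likelihood fit) were used on the deposited counts, with genotype as covariate and Benjamini-Hochberg adjustment at 0.05 over all genes tested; the input contrast was described without p-values. List levels are means of log2 CPM with a prior count of 2. Fits were tested on simulated data in which every gene had the same dispersion and IP and input were not paired by animal. The wider spread of cortical genes between marked animals was not simulated. The marked libraries and gene lists were chosen with earlier results of these data known. Input genes were named by a rule: the 12 largest folds in each direction among genes with non-predicted names, a mean of at least 2 CPM and no overlap; the members of the cortical, layer, D1 and D2 lists; and 2 to 4 members of every other list with the largest folds. IP genes were named as up to 12 called genes in each direction by p and the cortical list; the layer, claustrum, interneuron, astrocyte, receptor, channel, secreted-factor and kinase genes given for IP and Drd1 there were chosen after their values were seen. Ratios to Slc17a7 were also chosen after the data were seen.

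IP and input of an animal share a lysate per the labels' protocols, so animal numbers pair them; the deviations of the pairs from their group means correlated at 0.19 to 0.47 over 8624 genes in 11 of 11 animals. Alternatives were RLE scaling, other filters, DESeq2 1.42.0, limma-voom (limma 3.58.1), mitochondrial genes left out, no genotype term, 1 genotype alone, each animal left out, other thresholds and the replicate block. The authors' own tables of genotype comparisons were not used here. Single-gene results for 2 members of these lists are not reported here.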

Additional observations from a re-analysis of the deposited data

Results flagged for a closer look

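Mean log2 CPM of each gene list was compared among the libraries of each group, and 6 of 116 groups held a library that stood apart from the rest; chance alone sets apart about 1 group in 20. In the other inputs, the claustrum list reached 2.14 in animal 10, against 1.52 in the next library, and the ependymal and choroid plexus list reached 3.68 in animal 20, against 2.12 in the next, where Ttr stood at 1779 CPM. In the other IP libraries, the oligodendrocyte list was lowest in animal 20, at 1.56, against 2.02 in the next. The fibroblast and meningeal list was lowest in IP at -3.03 in marked animal 1, against 0.1, and at -2.95 in animal 2 among the others, against -0.69. The immediate early gene list was lowest in the marked IP of animal 1, at 4.8, against 5.57.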

How the results depend on the processing

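Among the genes followed through the alternatives, chiefly the named ones and members of the cortical lists, no called gene changed sign. The signs of the other called genes were not compared. Thresholds of 5 and 20 CPM for Slc17a7 gave the same groups and calls. Input genes higher in the marked libraries (149) numbered 417 in wild-type libraries alone, 637 in mutant libraries alone, 237 at a log2 fold of at least 0.5, 75 at 2, and 153 to 274 with each animal left out. Genes lower (19) numbered 331, 538, 37 and 7 in the same order, 30 with no filter on low counts, 9 when only genes reaching 1 CPM in 4 or more libraries entered, and 22 to 75 with each animal left out, moving over 1.5 times without animals 1, 3, 4, 9, 10, 12 or 13. In either direction, no overlap between input libraries is easier to meet with fewer of them. In IP, genes higher (246) numbered 432 with no filter, 372 with DESeq2, 40 in wild-type and 133 in mutant animals alone, and 119 to 293 with each animal left out. Genes lower (5) numbered 38, 33, 0 and 2 in the same order, 9 with limma-voom, 3 without the genotype term and 0 to 22 with each animal left out. The edgeR counts of 0, in wild-type animals alone and without animal 9, stood beside 1070 and 1260 genes at an unadjusted p under 0.05. Genotype calls (4) numbered 160 with no filter, 48 with DESeq2 (4 of them shared with each) and 7 without the marked libraries. Apart from fewer or more samples or genes, the cause was not tested. IP over input in the marked animals (3109 and 4029) became 3412 and 4326 with the replicate block. Input list medians that lay on both sides of 0 over these alternatives were those of hippocampal (-0.29 to 0.66), fibroblast (-0.22 to 0.57), immediate early (-0.35 to 0.27), endothelial (-0.47 to 0.02), astrocyte (-0.13 to 0.12), oligodendrocyte precursor (-0.08 to 0.05), postsynaptic (-0.03 to 0.10) and potassium channel genes (-0.02 to 0.29). Scaling alone turned the astrocyte median only. Emx1 and Ntsr1 rested on few counts, and the part of depth in their lost calls was not tested.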
